A study of Mus musculus with 15 samples.

Results

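The genes described here encode the mouse fatty acid and sphingolipid desaturases, and were taken as a fixed list of 8 gene symbols, Scd1, Scd2, Scd3, Scd4, Fads1, Fads2, Fads3 and Degs1. They are 8 of the 55421 genes for which read counts were deposited, and all 8 were among the 18979 genes with enough reads to be tested. Posterior eyecups without the neural retina, a preparation that holds the retinal pigment epithelium with the choroid and sclera, were collected from 4 WT, 6 FUN025/+ and 5 FUN025/FUN025 mice. All mice were 2.5 months old, of both sexes and on the C57BL/6J background; FUN025 is a mutant allele of Tmem135 that is carried in every cell, so FUN025/+ mice hold 1 mutant allele and FUN025/FUN025 mice hold 2. The eyecups of each mouse were pooled into 1 poly(A)-selected library, and each library is 1 mouse. The study sequenced these eyecups to find where the retinal abnormalities of the mutants originate. It compared the genotypes, and it also correlated expression with the number of mutant alleles.

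A desaturase introduces a double bond into a long acyl or sphingoid chain, using molecular oxygen and electrons that are passed from cytochrome b5. The stearoyl-CoA desaturases (Scd genes) make monounsaturated from saturated acyl-CoA, the front-end desaturases of the Fads family act in the synthesis of long polyunsaturated fatty acids, and Degs1 converts dihydroceramide to ceramide. Membranes of photoreceptors are rich in polyunsaturated chains, and the pigment epithelium takes up their shed outer segments each day. Transcription of Scd1, Scd2, Fads1 and Fads2 is known from other tissues to be driven by the sterol regulatory element-binding protein SREBP-1c and by liver X receptors.

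The 4 Scd genes lie within 1 cluster on chromosome 19 (GRCm38, chr19:44203269-44407879), with Scd1 on the minus strand and Scd2, Scd3 and Scd4 on the plus strand. Fads3, Fads2 and Fads1 form another cluster on the same chromosome (chr19:10041569-10196877), with Fads2 on the minus strand, and Degs1 lies on chromosome 1 at chr1:182275772-182282804 on the minus strand. The coding sequences of the Scd genes are close to each other, with 82.8% to 90.4% identical bases, and those of the Fads genes share 62.9% to 69.7%. The stretches below, 75 coding bases around the first histidine box (a motif whose histidines hold the iron of the active site), are shown because they let the paralogues be told apart. They come from GENCODE M21 transcripts on GRCm38, in the sense direction, and capitals mark bases that differ from Scd1 (lower lines of the Scd set) or from Fads1 (lower lines of the Fads set). The Scd stretches lie in exon 3, at chr19:44403204-44403278 for Scd1 (minus strand), chr19:44298057-44298131 for Scd2, chr19:44234240-44234314 for Scd3 and chr19:44337518-44337592 for Scd4 (plus strand).
Scd1: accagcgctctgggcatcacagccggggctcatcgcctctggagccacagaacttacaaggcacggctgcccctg
Scd2: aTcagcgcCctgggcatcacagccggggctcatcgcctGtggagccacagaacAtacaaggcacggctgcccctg
Scd3: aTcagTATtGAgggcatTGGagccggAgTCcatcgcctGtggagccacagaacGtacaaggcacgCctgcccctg
Scd4: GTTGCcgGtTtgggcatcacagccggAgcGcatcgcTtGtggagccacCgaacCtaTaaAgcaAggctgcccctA
The Fads stretches join exons 3 and 4 across an intron, within chr19:10185874-10186443 for Fads1 (plus strand), chr19:10088738-10088916 for Fads2 (minus strand) and chr19:10053025-10054085 for Fads3 (plus strand).
Fads1: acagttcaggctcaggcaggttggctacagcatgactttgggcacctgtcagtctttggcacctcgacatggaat
Fads2: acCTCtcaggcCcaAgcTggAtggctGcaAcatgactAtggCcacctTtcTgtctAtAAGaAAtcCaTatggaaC
Fads3: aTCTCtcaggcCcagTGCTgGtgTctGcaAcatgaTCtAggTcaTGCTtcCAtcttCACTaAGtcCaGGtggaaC

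In this window Scd2 differed from Scd1 at 4 of 75 bases, Scd3 at 15 and Scd4 at 17. Fads2 differed from Fads1 at 22 bases and Fads3 at 33. Over the whole exon sequence, 8.18% of the 31-base stretches of Scd1 and 6.81% of those of Scd2 also occurred in another gene, against 15.2% for Scd3 and 10.8% for Scd4. The same share was 0% for Fads1, 0.729% for Fads2, 0.621% for Fads3 and 2.23% for Degs1. How reads matching several genes were counted is not given in the sources used here, so the counts of Scd3 and Scd4 in particular are uncertain. The microRNA gene Mir5114 lies on the same strand within Scd2 over 61 bases, and no other annotated gene shares exon bases with a member.

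Levels are given as CPM, a gene's reads scaled so that libraries of different depth can be compared. Total counts were 18094977 to 20029919 in WT, 10903183 to 13456349 in FUN025/+ and 11053535 to 15038383 in FUN025/FUN025 libraries. Every WT library was deeper than every mutant library, no batch is labelled, and depth and genotype cannot be told apart in comparisons with WT. With every library thinned to the smallest, the same number of members passed the test in each comparison. A signal of 3 counts, the smallest taken as detected, corresponds to 0.15 to 0.28 CPM, which covers counting error only. The 8 pigment epithelium markers, with Rpe65, Rlbp1 and Rgr among them, summed to between 16650 and 22410 CPM in every library. The median sums were 19233 CPM in WT, 21145 in FUN025/+ and 18280 in FUN025/FUN025. In no comparison did edgeR's quasi-likelihood test call any of them. Between FUN025/FUN025 and FUN025/+ 5 had an unadjusted p under 0.05 in that test, and DESeq2 called 0. Of these 5, Rpe65, Rgr, Rlbp1 and Rdh5 were lower in FUN025/FUN025 and Ttr was higher (median log2 fold change of the list -0.184). The photoreceptor markers summed to 359 to 2538 CPM in WT, 188 to 797 in FUN025/+ and 190 to 526 in FUN025/FUN025. Tmem135 itself was at 59.8 to 66.2 CPM in WT, 66.1 to 86.3 in FUN025/+ and 82.5 to 94.0 in FUN025/FUN025, and counts over the whole gene do not show which allele was transcribed.

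Scd1, Scd2, Fads1 and Fads2 were higher in FUN025/FUN025 eyecups than in those of WT and of FUN025/+ mice. Calls were made at an adjusted p under 0.05 (Benjamini-Hochberg, over all genes tested) in the quasi-likelihood framework of edgeR. The other members, Scd3, Scd4, Fads3 and Degs1, passed in no comparison, and neither did they with DESeq2; Degs1 between FUN025/+ and WT was the 1 case with an unadjusted p under 0.05. Between FUN025/FUN025 and WT, 4 of 8 members passed, all higher, where 14.0% of all genes passed (7.03% higher). Between FUN025/FUN025 and FUN025/+ the same 4 passed, all higher, where 0.522% of all genes passed (0.327% higher). Between FUN025/+ and WT 2 members passed, Scd2 and Fads1, where 13.7% of all genes did (7.09% higher). The median log2 fold change over the 8 members was 0.39, 0.41 and 0.07 in these comparisons, beside -0.00707, -0.00399 and -0.00234 over all genes. The 3 comparisons share libraries, so their values are given side by side and are not independent of each other.

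**Figure D1:**
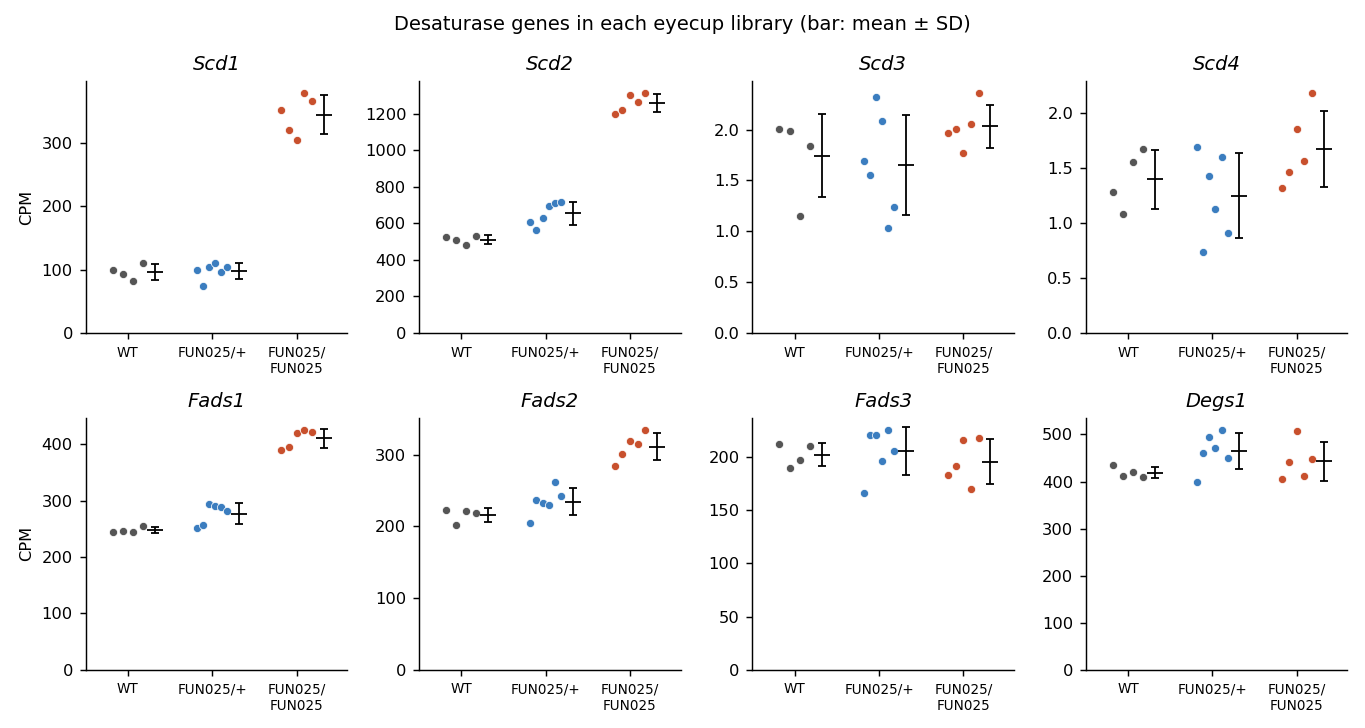
CPM of the 8 desaturase genes in each library (vertical axes, each from 0) by genotype (horizontal axis), with 1 point per mouse and the mean ± SD beside it (n = 4, 6 and 5). The FUN025/FUN025 points of Scd1, Scd2, Fads1 and Fads2 lie above all others, while those of Scd3, Scd4, Fads3 and Degs1 overlap the other genotypes.

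Scd1, the stearoyl-CoA desaturase that predominates in liver and fat, was the member with the largest rise in FUN025/FUN025, and it did not pass the test between FUN025/+ and WT. Its level was 98.8, 93.2, 81.9 and 111 CPM in the WT mice, and in the FUN025/+ mice it ran from 74.9 through a median of 102 to 111 CPM. In the FUN025/FUN025 mice it was 351, 320, 305, 379 and 366 CPM. The WT and FUN025/+ ranges overlapped almost entirely, and the lowest homozygote lay well above the highest of the other mice. The log2 fold change from WT to FUN025/FUN025 was 1.84 (SE 0.11, adjusted p = 3.12e-08), a 3.57-fold difference. From FUN025/+ to FUN025/FUN025 it was 1.81 (SE 0.09, adjusted p = 4.46e-08). From WT to FUN025/+ it was 0.03 (SE 0.10, adjusted p = 0.881), with a 95% interval of -0.19 to 0.24.

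Scd2, the stearoyl-CoA desaturase that predominates in brain, was the more abundant of this pair in every library. It stood at 526, 507, 479 and 533 CPM in the WT mice and ran from 565 through a median of 663 to 718 CPM in the FUN025/+ mice. The FUN025/FUN025 mice had 1200, 1222, 1303, 1264 and 1313 CPM. The 3 genotypes formed 3 separate ranges in the order of the number of mutant alleles. The rise in FUN025/+ relative to WT was 0.36 on the log2 scale (SE 0.07, adjusted p = 0.00159), a 1.28-fold difference. The rise in FUN025/FUN025 was 1.30 relative to WT (SE 0.07, adjusted p = 2.40e-09) and 0.94 relative to FUN025/+ (SE 0.06, adjusted p = 4.46e-08).

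Scd3 and Scd4 were close to absent. Scd3, a desaturase described mainly in skin, had 11 to 37 counts per library, and its mean ± SD was 1.74 ± 0.40 CPM in WT, 1.65 ± 0.49 in FUN025/+ and 2.03 ± 0.21 in FUN025/FUN025. Scd4, described mainly in heart, had 9 to 31 counts and means of 1.39 ± 0.27, 1.25 ± 0.38 and 1.67 ± 0.34 CPM. Both genes were above the floor in every library, and the 3 genotypes overlapped for each. Relative to WT the log2 difference in FUN025/FUN025 was 0.22 for Scd3 (95% interval -0.26 to 0.70, adjusted p = 0.573) and 0.25 for Scd4 (-0.27 to 0.77, adjusted p = 0.542). A change of the size seen in Scd1 or Scd2 was outside these intervals.

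Fads1, the delta-5 desaturase that makes arachidonic and eicosapentaenoic acid, rose in both mutant genotypes. Its WT levels were 245, 245, 244 and 255 CPM, and the FUN025/+ levels ran from 251 through a median of 285 to 294 CPM. The FUN025/FUN025 levels were 390, 395, 420, 426 and 421 CPM. The WT mice were close to each other, the lower end of the FUN025/+ range fell among them, and every homozygote lay above both. The log2 fold change was 0.73 from WT to FUN025/FUN025 (SE 0.05, adjusted p = 6.52e-08) and 0.57 from FUN025/+ to FUN025/FUN025 (SE 0.05, adjusted p = 2.04e-06). The rise from WT to FUN025/+ was small, 0.16 (SE 0.05, adjusted p = 0.0423). This call was lost when any 1 of 10 mice was left out (all 4 WT, FUN025/+ replicates 3 to 6 and FUN025/FUN025 replicates 3 and 5), with an adjusted p of 0.0505 to 0.0879, and the difference then lay between 0.15 and 0.18.

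Fads2, the delta-6 desaturase at the first step from linoleic and alpha-linolenic acid, followed Fads1 at smaller size. The WT mice had 222, 202, 222 and 218 CPM, and the FUN025/+ mice ran from 204 through a median of 234 to 261 CPM. The FUN025/FUN025 mice had 285, 301, 320, 315 and 335 CPM. Homozygotes lay above all others, and the WT range fell mostly inside that of FUN025/+. The log2 fold change was 0.53 relative to WT (SE 0.06, adjusted p = 2.38e-05) and 0.41 relative to FUN025/+ (SE 0.06, adjusted p = 5.92e-04). Between FUN025/+ and WT it was 0.12 (95% interval -0.01 to 0.25, adjusted p = 0.208).

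Fads3, the remaining gene of its cluster and one linked to the desaturation of sphingoid bases, did not move with its neighbours. Its mean was 202 ± 10.6 CPM in WT (190 to 212), 206 ± 22.4 in FUN025/+ (166 to 226) and 196 ± 20.9 in FUN025/FUN025 (170 to 218). The lowest FUN025/+ mouse and the lowest homozygote lay below every WT mouse, and the highest of each lay above. The log2 difference between FUN025/FUN025 and WT was -0.05, with a 95% interval of -0.23 to 0.13 (adjusted p = 0.751), which does not include the differences of Fads1 or Fads2.

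Degs1, the dihydroceramide desaturase, passed in no comparison of the genotypes. Its mean was 419 ± 11.6 CPM in WT (409 to 434), 464 ± 38.7 in FUN025/+ (399 to 510) and 443 ± 40.8 in FUN025/FUN025 (405 to 508). Mutant mice spread more widely than WT mice on either side of them. The log2 difference was 0.15 in FUN025/+ (95% interval 0.01 to 0.29, adjusted p = 0.156) and 0.08 in FUN025/FUN025 (-0.07 to 0.23, adjusted p = 0.486) relative to WT. Without FUN025/+ replicate 1 the first of these was 0.19 and passed (adjusted p = 0.0494), and under the alternatives that left out no single mouse it ran from 0.13 to 0.33 and did not pass.

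**Figure D2:**
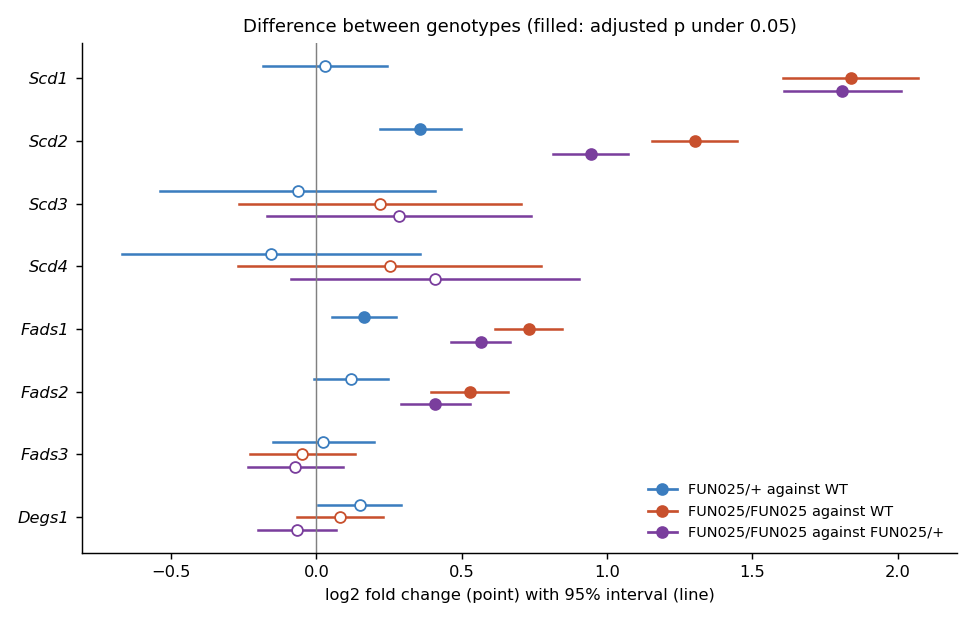
Log2 fold change (horizontal axis) of each desaturase gene (vertical axis) in the 3 comparisons between genotypes, with the 95% interval as a line, and filled points where the adjusted p was under 0.05. Scd1 shows the largest rises in FUN025/FUN025 (1.84 against WT and 1.81 against FUN025/+) and 0.03 between FUN025/+ and WT.

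The CPM ranges of the genotypes were also compared directly, without a model. Between FUN025/FUN025 and WT 4 of 8 members did not overlap, where 14.8% of all genes did not. Between FUN025/FUN025 and FUN025/+ the same 4 did not overlap, where 1.12% of all genes did not. Between FUN025/+ and WT this held for Scd2 alone, where 10.9% of all genes did not overlap.

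The response to the number of mutant alleles was uneven among the members that rose. A linear trend per mutant allele passed for 4 of 8 members, all higher, where 8.90% of all genes passed, with slopes on the log2 scale of 0.95 for Scd1, 0.66 for Scd2, 0.37 for Fads1 and 0.27 for Fads2. Departure from that line was tested by setting FUN025/+ against the midpoint of WT and FUN025/FUN025 on the log2 scale, and 3 of 8 members passed, all below the midpoint, where 1.95% of all genes passed. Scd1 lay 0.89 below the midpoint (log2 difference -0.89, SE 0.08, adjusted p = 3.30e-05), Scd2 -0.29 (SE 0.05, adjusted p = 0.00650) and Fads1 -0.20 (SE 0.04, adjusted p = 0.0168). The call of Fads1 was lost without FUN025/+ replicate 2 (-0.18, adjusted p = 0.0537). Fads2 was at -0.15 and did not pass (SE 0.05, adjusted p = 0.144). With photoreceptor and muscle markers or adipocyte markers as covariates these calls changed, as given with the markers.

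Expressed as a share of the homozygous rise in CPM, the FUN025/+ mice had reached 0.778% for Scd1, between -1.18% and 2.73% when each mouse was left out in turn. The share was 19.2% for Scd2 (17.6% to 21.6%), 18.3% for Fads1 (16.2% to 21.5%) and 19.4% for Fads2 (13.7% to 25.7%). On the log2 scale the same shares were 1.44%, 27.2%, 22.1% and 22.0%. In CPM the ranges over left-out mice overlapped for Scd2, Fads1 and Fads2, and that of Scd1 lay below them. These ranges show the pull of single mice and are not confidence intervals. Whether the shares differ between genes was not tested. The sizes of the shares depended on the covariates: with photoreceptor and muscle markers in the fit, the log2 shares were 8.64% for Scd1, 40.7% for Scd2, 33.9% for Fads1 and 31.7% for Fads2, beside 1.58%, 27.5%, 22.5% and 22.4% in the same fit without them.

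**Figure D3:**
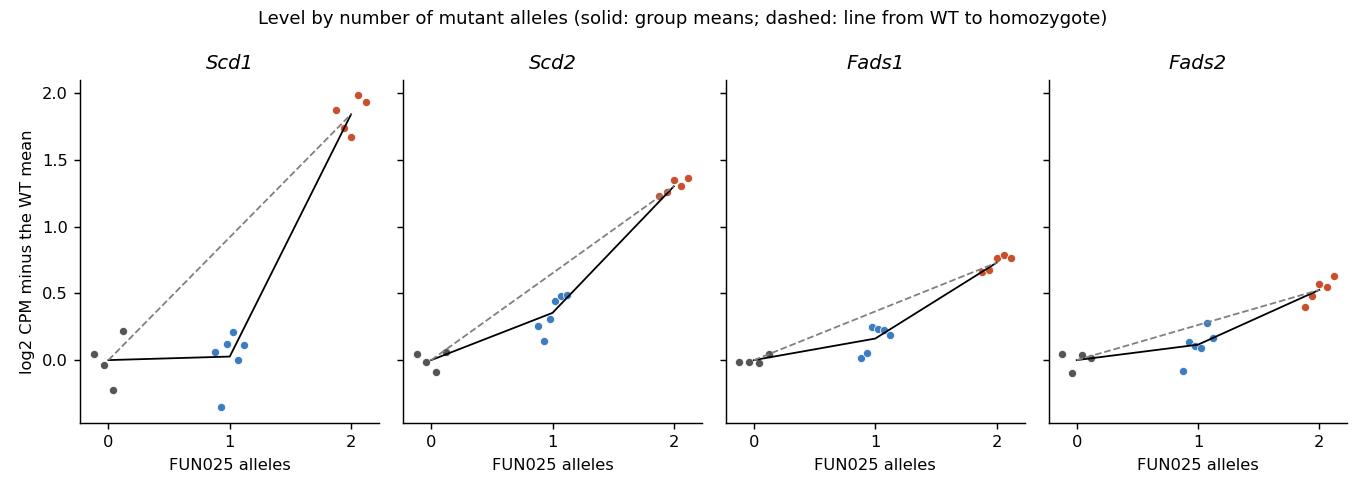
Log2 CPM relative to the WT mean (vertical axis) of Scd1, Scd2, Fads1 and Fads2 against the number of FUN025 alleles (0, 1 or 2), with 1 point per mouse, a solid line through the genotype means and a dashed line from WT to FUN025/FUN025. In Scd1 the FUN025/+ mean sits at the WT level, while in Scd2, Fads1 and Fads2 it lies between the WT mean and the dashed line.

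Ratios of paralogues within a library do not depend on library scaling, and 12 comparisons of 4 ratios were made with an exact two-sided permutation test and adjusted together. The ratio of Scd2 to Scd1 counts was 5.33, 5.44, 5.86 and 4.79 in the WT mice and ran from 6.06 through 6.59 to 7.55 in the FUN025/+ mice. In the FUN025/FUN025 mice it was 3.42, 3.82, 4.28, 3.34 and 3.59. The ratio was therefore highest with 1 mutant allele and lowest with 2, and the 3 ranges did not overlap. The log2 ratio differed by 0.33 between FUN025/+ and WT (exact permutation p = 0.00952, adjusted p = 0.0143), by -0.54 between FUN025/FUN025 and WT (p = 0.00794, adjusted p = 0.0136) and by -0.87 between FUN025/FUN025 and FUN025/+ (p = 0.00216, adjusted p = 0.00866, exact permutation). The last 2 are the smallest p that so few mice can give.

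The ratio of Fads1 to Fads2 moved less. It was 1.10, 1.22, 1.10 and 1.17 in WT, ran from 1.08 through 1.20 to 1.27 in FUN025/+, and was 1.37, 1.31, 1.31, 1.35 and 1.26 in FUN025/FUN025. The homozygotes lay above all WT mice and overlapped the upper FUN025/+ mice. Relative to WT the log2 ratio was 0.20 higher in FUN025/FUN025 (exact permutation, adjusted p = 0.0136), and relative to FUN025/+ it was 0.16 higher (exact permutation, adjusted p = 0.0173). Between FUN025/+ and WT the difference was 0.05 (SD 0.10 and 0.07, exact permutation, adjusted p = 0.400).

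Both of these genes diverged from Fads3 in the homozygotes. The mean ratio of Fads1 to Fads3 was 1.22 ± 0.06 in WT, 1.36 ± 0.13 in FUN025/+ and 2.11 ± 0.23 in FUN025/FUN025, and that of Fads2 to Fads3 was 1.07 ± 0.04, 1.14 ± 0.07 and 1.60 ± 0.15. Against WT the log2 ratios were 0.78 and 0.58 higher in FUN025/FUN025, and against FUN025/+ they were 0.64 and 0.48 higher (exact permutation, adjusted p = 0.0136 and 0.00866 for both ratios). Neither ratio passed between FUN025/+ and WT (exact permutation, adjusted p = 0.114 and 0.0857). In all, 9 of the 12 comparisons of ratios passed. When medians were permuted in place of means, 0 of the 12 passed after adjustment (lowest adjusted p = 0.0623, exact permutation), with 9 at an unadjusted p under 0.05. Medians of so few mice tie in many arrangements, and ratios with fully separate ranges, such as Scd2 to Scd1, did not pass either. The count with medians therefore does not tell separate from overlapping ranges.

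**Figure D4:**
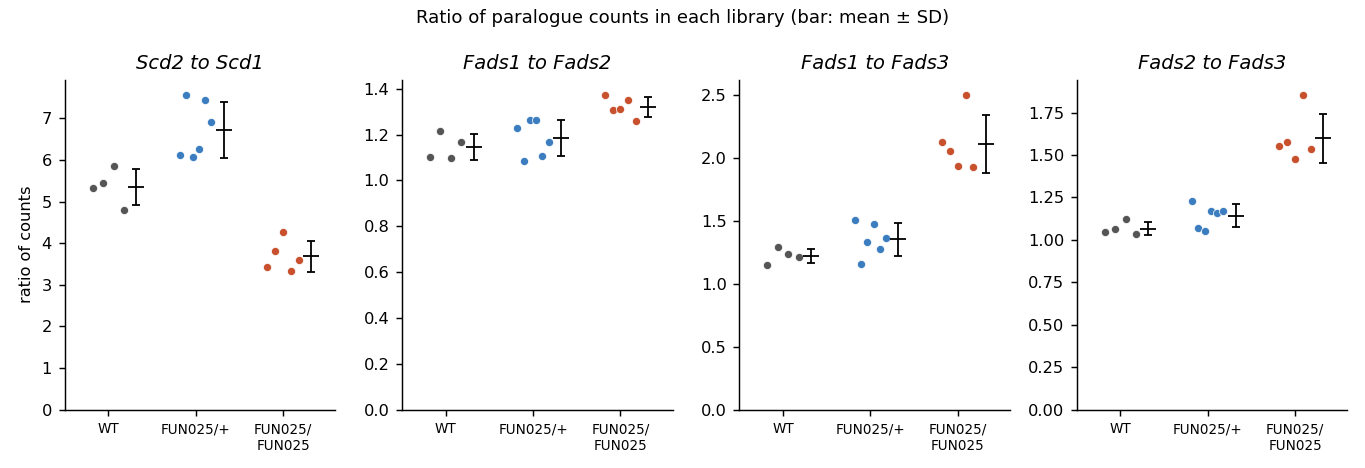
Ratio of the counts of paralogues (vertical axes, each from 0) in each library by genotype (horizontal axis), with 1 point per mouse and the mean ± SD beside it (n = 4, 6 and 5). The Scd2 to Scd1 ratio is 5.35 in WT, 6.73 in FUN025/+ and 3.69 in FUN025/FUN025, and both ratios to Fads3 lie above all other mice in FUN025/FUN025.

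To set the genes beside each other, CPM was divided by the exon length of each gene in kilobases. Per kilobase, the WT order was Degs1 (162 CPM per kb), Scd2 (93.6), Fads2 (65.5), Fads3 (53.4), Fads1 (51.4), Scd1 (19.7), Scd3 (0.49) and Scd4 (0.37). Fads3 and Fads1 overlapped in this order, as did Scd3 and Scd4, and every other neighbour was separated in all 4 WT mice. In FUN025/+ the order was the same except that Fads1 (57.6) and Fads3 (54.3) stood in the opposite order, with overlapping ranges. In FUN025/FUN025 Scd2 (231 CPM per kb) stood above Degs1 (171) in 5 of 5 mice, and Scd1 (70.3) stood above Fads3 (51.6) in 5 of 5. Fads2 (94.4) and Fads1 (85.3) overlapped there, although Fads2 was the higher in each of the 5 mice.

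The summed level of the Scd genes was 114 ± 6.89 CPM per kb in WT, 141 ± 13.3 in FUN025/+ and 302 ± 11.2 in FUN025/FUN025. Scd1 held 17.2% ± 1.17 of that sum in WT, 14.2% ± 1.18 in FUN025/+ and 23.3% ± 1.74 in FUN025/FUN025. Scd2 held most of the rest, at 82.1%, 85.2% and 76.4%, and Scd3 and Scd4 together less than 1%. Among the genes tested with a known length, Scd2 per kilobase ranked 411th in WT and 120th in FUN025/FUN025, and Scd1 moved from rank 2856 to rank 608. Degs1 was at rank 184 in WT and 176 in FUN025/FUN025.

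Across the 15 libraries, the gene most like a member in log2 CPM was another member for Scd2 and Fads1, 2 of the 8. Scd2 and Fads1 named each other first (Pearson's r = 0.988), and Fads1 and Scd2 were among the 3 genes most like Scd1 (r = 0.962 and 0.957) and Fads2 (0.958 and 0.947). Lpcat3, an acyltransferase that places polyunsaturated chains into phospholipids, was among the 3 most like Scd2 (0.962), Fads1 (0.969) and Fads2 (0.963), with 0.436, 0.568 and 0.689 within genotypes. Chrnb4, a nicotinic receptor subunit, was most like Scd1 (0.963), and Daam1, a formin-type actin regulator, was second for Scd2 (0.965, and 0.229 after the genotype means were subtracted). These values describe libraries that share their genotype. After the genotype means were subtracted, r was 0.73 for Scd2 with Fads1, 0.62 for Scd1 with Scd2, 0.62 for Fads1 with Fads2, -0.06 for Scd1 with Fads2 and 0.07 for Scd1 with Chrnb4.

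Fads3 was most like Psap, the precursor of the saposins that activate sphingolipid hydrolases (r = 0.946, and 0.951 within genotypes), followed by Cltrn (0.939) and Atp6v1e1, a subunit of the vacuolar proton pump (0.935). Degs1 was most like Atp1b1, a sodium pump subunit (0.927), followed by Coa5 (0.912) and Slc39a12 (0.891). The 2 members correlated with each other at 0.735, and at 0.832 within genotypes. Within genotypes Fads2 also correlated with Fads3 at 0.761 and with Degs1 at 0.694, and Fads1 with Degs1 at 0.582, beside 0.62 for Fads1 with Fads2. Over all libraries r was 0.07 for Fads2 with Fads3, 0.28 for Fads2 with Degs1 and 0.17 for Fads1 with Degs1. The genes most like Scd3 and Scd4 (r = 0.850 for Gm44836 and 0.829 for C730034F03Rik at best) rest on counts too low to read.

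Genes beside the clusters were read in the same comparisons. Within 100 kb of the Scd cluster, Chuk, Cwf19l1, Bloc1s2 and Pkd2l1 were tested and Wnt8b was too low to test. Within 100 kb of the Fads cluster, Fth1, Best1, Rab3il1, Fen1, Tmem258 and Myrf were tested. None of these 10 genes was called in any comparison of genotypes by edgeR's quasi-likelihood test, where 13.7% (FUN025/+ against WT), 14.0% (FUN025/FUN025 against WT) and 0.522% (FUN025/FUN025 against FUN025/+) of all genes were. Their log2 fold changes between FUN025/FUN025 and WT ran from -0.27 for Best1 to 0.24 for Pkd2l1. At an unadjusted p under 0.05 there was 1 in each comparison (Tmem258, Chuk and Myrf), and DESeq2 called Tmem258 between FUN025/+ and WT.

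RefSeq promoter sequences were matched for 5 members, Degs1, Fads3, Fads2, Scd3 and Scd4 (GRCm38.p6, 250 bases before to 50 after the annotated start), and those of Fads2 and Fads3 are shown because these neighbours differ in their response. The motifs searched on both strands, of factors known to act on lipid genes, were an SRE-like motif (TCACNCCAC), an E-box (CACGTG), the CCAAT box of NF-Y (CCAAT) and the GC box of Sp factors (GGGCGG). Capitals mark the matches, in chr19:10101454-10101753 on the minus strand for Fads2 and chr19:10041298-10041597 on the plus strand for Fads3.
Fads2: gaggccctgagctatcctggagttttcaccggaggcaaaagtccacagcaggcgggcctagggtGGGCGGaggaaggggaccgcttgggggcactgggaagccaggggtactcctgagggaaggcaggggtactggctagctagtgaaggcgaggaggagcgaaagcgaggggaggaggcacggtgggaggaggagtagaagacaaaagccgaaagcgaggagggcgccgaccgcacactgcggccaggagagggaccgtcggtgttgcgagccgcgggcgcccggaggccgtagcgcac
Fads3: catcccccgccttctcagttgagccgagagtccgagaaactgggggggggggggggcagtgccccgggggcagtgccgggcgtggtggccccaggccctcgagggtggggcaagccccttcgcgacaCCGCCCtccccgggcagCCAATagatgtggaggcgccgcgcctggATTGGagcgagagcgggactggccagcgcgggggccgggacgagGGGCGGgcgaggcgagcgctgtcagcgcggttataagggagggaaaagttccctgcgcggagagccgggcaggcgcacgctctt

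The Fads2 window held 1 GC box, and the Fads3 window held 2 CCAAT boxes and 2 GC boxes. The Degs1 window held 1 E-box, and those of Scd3 and Scd4 held no match. Among 32851 promoters of the same length, 1.24% held the SRE-like motif, 7.15% the E-box, 37.4% the CCAAT box and 35.7% the GC box. No match says only that these letters are not in this window.

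The genes around the desaturases were counted in 10 lists between FUN025/FUN025 and WT, where 14.0% of all genes passed. Of 8 genes of the SREBP machinery 4 passed, all higher (median log2 fold change 0.12, against -0.00707 over all genes). Insig1, a sterol-regulated gene that retains SREBPs in the endoplasmic reticulum, had 75.9 ± 11.3 CPM in WT, 114 ± 9.70 in FUN025/+ and 177 ± 18.7 in FUN025/FUN025, and rose in each step (log2 0.58 and 0.64, adjusted p = 6.89e-04 and 7.28e-04). Srebf1, the gene of SREBP-1, had 166 ± 17.3, 176 ± 13.9 and 278 ± 19.1 CPM, with 0.08 (adjusted p = 0.478) between FUN025/+ and WT and 0.66 (adjusted p = 1.47e-05) between FUN025/FUN025 and FUN025/+. Srebf1 lay below the midpoint in FUN025/+ (-0.29, adjusted p = 0.0132), as Scd1, Scd2 and Fads1 did. Insig1 did not differ detectably from it (-0.03, adjusted p = 0.883). Of the genes named from the other lists, Fasn (-0.18, adjusted p = 0.0317) and Acsl3 (-0.20, adjusted p = 0.0234) also lay below it. Elovl2 (0.57, adjusted p = 5.94e-04) and Sptssa (0.19, adjusted p = 0.0234) lay above it. These values are from the fit without covariates, where 1.95% of all genes passed.

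Of 11 genes of fatty acid synthesis 6 passed, all higher (median 0.22). Acaca, acetyl-CoA carboxylase, rose by 0.40 (adjusted p = 2.32e-05) and Fasn, fatty acid synthase, by 0.42 (adjusted p = 3.50e-05). Of 11 tested elongases and their partners 1 rose and 1 fell (median 0.09). Elovl6, which lengthens palmitate to the substrate of the Scd enzymes, rose by 0.26 (adjusted p = 0.0254), and Elovl2, which lengthens polyunsaturated chains after Fads1, fell by 0.39 on the log2 scale (adjusted p = 0.0182). Elovl2 was not in the order of the alleles, at 28.9 ± 3.69 CPM in WT, 37.5 ± 4.32 in FUN025/+ and 22.1 ± 2.40 in FUN025/FUN025.

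Of 8 acyl-CoA synthetases 3 passed, all higher (median 0.08), with Acsl3 at 0.32 (adjusted p = 0.00108) and Acsl4, which prefers arachidonate, at 0.34 (adjusted p = 6.42e-04). Of 9 genes that handle polyunsaturated chains 2 passed, both higher (median 0.11). These were Lpcat3 (0.67, adjusted p = 1.59e-06) and Mfsd2a, a carrier of lysophosphatidylcholine with docosahexaenoate (0.72, adjusted p = 0.00215). Of 8 genes that supply electrons to desaturases 2 rose and 1 fell (median -0.00175). Cyb5a, the cytochrome b5 of the endoplasmic reticulum, fell by 0.31 on the log2 scale (adjusted p = 7.68e-04), while Cyb5r3, its reductase, rose by 0.21 (adjusted p = 0.00546).

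Of 9 matched desaturase-like enzymes outside the 8 members 3 rose and 1 fell (median 0.03). Ch25h, a cholesterol hydroxylase, rose by 0.72 (adjusted p = 0.00142) and Msmo1, a sterol oxidase, by 0.50 (adjusted p = 5.04e-04). Of 13 tested genes of ceramide synthesis, the pathway of Degs1, 2 passed, Sptlc2 (0.17) and Sptssa (0.17), both higher (median -0.00818), a share close to the 14.0% of all genes, and of 19 genes of ceramide use and breakdown 3 rose and 1 fell (median 0.04), with Asah1 at 0.19 and Galc at 0.16. Of 10 liver X, retinoid X and peroxisome proliferator-activated receptors and ChREBP genes, 0 passed between FUN025/FUN025 and WT (median -0.12) by edgeR's quasi-likelihood test or DESeq2, 5 had an unadjusted p under 0.05, and 3 fell between FUN025/+ and WT, where 13.7% of all genes passed. Those 3, Nr1h3 (-0.36), Ppard (-0.27) and Rxrb (-0.15), are named after their values were seen.

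**Figure D5:**
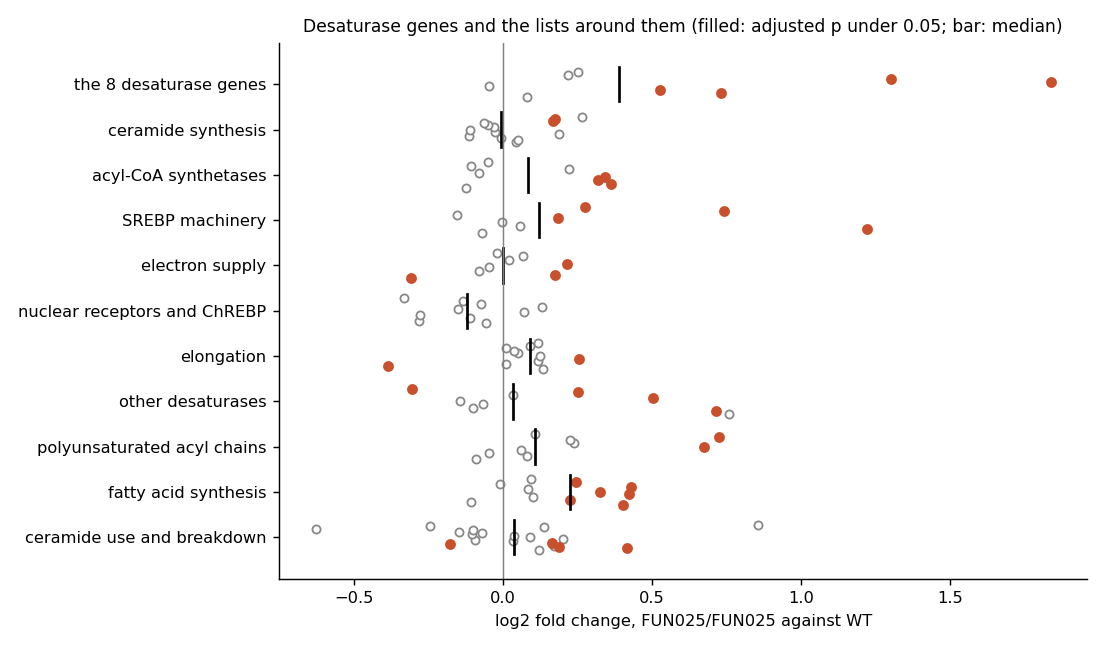
Log2 fold change between FUN025/FUN025 and WT (horizontal axis) of each tested gene in the 8 desaturase genes and the 10 lists around them (vertical axis), with filled points where the adjusted p was under 0.05 and a bar at the median of each list. Scd1 (1.84) and Scd2 (1.30) lie furthest to the right, followed by Insig1 (1.22) of the SREBP machinery.

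Markers of other cells in the eyecup differed between the genotypes, and in bulk tissue fewer cells of a type cannot be told apart from less RNA per cell. The 9 skeletal muscle markers summed to 4768 to 8194 CPM in WT, 2440 to 5662 in FUN025/+ and 3456 to 4076 in FUN025/FUN025, with 3 lower in each mutant genotype than in WT. The 7 adipocyte markers summed to 90.6 to 128, 65.2 to 84.9 and 72.6 to 87.2 CPM. Most of that sum was Plin4, with 78.9, 60.7 and 64.3 CPM on average, followed by Fabp4 with 16.7, 8.52 and 10.3. Adipoq, which defines fat cells, averaged 1.49, 0.683 and 1.06 CPM, so the sum says little about fat cells alone. Of the 6 tested, 2 were lower in FUN025/+ than in WT (median log2 fold change -0.935) and 0 passed between FUN025/FUN025 and WT (median -0.425) by edgeR's quasi-likelihood test, where 2 had an unadjusted p under 0.05 and DESeq2 called 1. Of 7 endothelial markers 5 were lower in FUN025/FUN025 than in WT and 2 in FUN025/+ (sums 1037 to 1182, 811 to 1106 and 754 to 929 CPM), where 14.0% and 13.7% of all genes passed. Of 9 macrophage markers 1 was higher in FUN025/FUN025 than in WT, a share below that of all genes (sums 522 to 662, 506 to 738 and 589 to 664 CPM). The 6 gland markers summed to 19.5 to 25.8 CPM over all libraries, of which Far2 gave 21.8 to 22.4 on average, while Awat1, Elovl3 and Dgat2l6 were at or near 0. The levels of Schwann cell, fibroblast and melanocyte markers overlapped between all genotypes, with 1 of 7, 0 of 5 and 0 of 5 called between FUN025/FUN025 and WT by edgeR's quasi-likelihood test (2 fibroblast and 1 melanocyte marker had an unadjusted p under 0.05, and DESeq2 called 0 of either). The counts between FUN025/+ and WT were 1 of 7, 0 of 5 and 0 of 5 by edgeR (0 fibroblast markers and 1 melanocyte marker, Tyr, had an unadjusted p under 0.05, and DESeq2 called Tyr). Beyond the covariates tried here, the part of these cells in the members' values was not tested.

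With the photoreceptor and muscle markers as covariates, the log2 fold change between FUN025/FUN025 and FUN025/+ was 1.80 for Scd1, 0.92 for Scd2, 0.55 for Fads1 and 0.40 for Fads2. All 4 passed (the highest adjusted p was 1.18e-04, for Fads2), where 0.569% of all genes passed with these covariates. Between FUN025/FUN025 and WT the values were 1.97, 1.55, 0.84 and 0.59, and all passed, where the share of all genes was 1.58%, down from 14.0%. Between FUN025/+ and WT Scd2 was at 0.63 (adjusted p = 0.0175) and Fads1 at 0.28 (adjusted p = 0.286), where 0.553% of all genes passed, down from 13.7%. Against the midpoint none of the members passed with these covariates, at -0.81 for Scd1 (adjusted p = 0.0565), -0.14 for Scd2 (adjusted p = 0.566) and -0.14 for Fads1 (adjusted p = 0.560), and of all genes 0.116% passed, down from 1.95%. With the adipocyte markers as covariate, which was added after seeing the data, Scd1 was the 1 member that passed against the midpoint (-0.83, adjusted p = 0.00151), where 0.469% of all genes did. Between FUN025/+ and WT Scd2 (0.37, adjusted p = 0.0164) then passed and Fads1 did not (0.16, adjusted p = 0.179), where 4.71% of all genes passed. With the macrophage markers as covariate, also added after seeing the data, Scd1 (-0.91), Scd2 (-0.30) and Fads1 (-0.20) passed against the midpoint (the highest adjusted p was 0.0201, for Fads1), where 2.13% of all genes did.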

How the data were processed

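Polyadenylated RNA of 15 eyecup libraries was sequenced as paired ends of 150 bases, and the authors deposited raw read counts, which are whole numbers, for 55421 Ensembl genes in every library. The submitters' processing notes name FastQC 0.11.8, Trimmomatic 0.39, HISAT2 2.1.0, SAMtools, featureCounts 2.0.0 and GRCm38. The annotation, the strand setting and the treatment of multimapping reads are not given in the sources used here. Libraries were grouped by their labelled genotype. The sex of single mice is not labelled. The members and gene lists were chosen with earlier results of these data known.

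GENCODE M21 (GRCm38) gave symbols and positions, and 1 listed gene, Faxdc2, was not matched. After the study's methods, the least variable 15% of genes were dropped, and edgeR's filterByExpr left 18979. All 15 mice entered 1 fit with edgeR 4.0.16 (TMM scaling, robust quasi-likelihood test, Benjamini-Hochberg adjustment, threshold 0.05). Log2 CPM for likeness used a prior count of 2. Paralogue ratios used counts plus 0.5 and exact permutation of the mice. Fits were tested on simulated counts. No 2 libraries were alike within sampling noise (chi-square per gene of 3.14 to 18.2), and p-values measure the spread between mice.

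Named genes were the 8 members, from each pathway list every gene called between FUN025/FUN025 and FUN025/+ and the 2 with the smallest p among those called between FUN025/FUN025 and WT, the 3 genes most like each member, protein-coding genes with a start within 100 kb of a cluster, and Tmem135. Replicate numbers come from the labels, and mice that share a number across genotypes are not the same animal. Alternatives were DESeq2 1.42.0 size factors and Wald test, other filters, fits of only the genotypes compared, the replicate block, marker and Xist covariates, thinned counts and leaving out each mouse. Programs were R 4.3.3, limma 3.58.1, Python 3.11.15, numpy 2.4.6, pandas 2.3.3, scipy 1.17.1 and Biopython 1.88.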

Additional observations from a re-analysis of the deposited data

Results flagged for a closer look

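Among 36 groups of values examined for a mouse far from the rest of its genotype (8 members and 4 ratios in each genotype), 2 stood out, and chance gives about 1 in 20. Fads1 in WT replicate 4 was at 254.9 CPM, where the nearest WT mouse was at 245.5 and the other WT mice lay within about 1 CPM of it. The log2 ratio of Fads2 to Fads3 in FUN025/FUN025 replicate 4 was 0.89, where the nearest homozygote was at 0.66; this mouse had the lowest Fads3 of its genotype (170 CPM) and an unremarkable Fads2 (315 CPM).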

How the results depend on the processing

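Scd1, Scd2, Fads1 and Fads2 kept their direction and their call between FUN025/FUN025 and both other genotypes under every alternative run, and so did their trend per allele. The count between FUN025/+ and WT, 2 members, was 1 with no filter on low counts, with only the genotypes compared, with the replicate block, with photoreceptor and muscle covariates and with the adipocyte covariate added after seeing the data, Fads1 being lost each time. Of all genes 13.7% passed there, against 0.553% and 4.71% with these covariates. Leaving out single mice gave 1 to 3 members, Degs1 being added without FUN025/+ replicate 1 (adjusted p = 0.0494). The count against the midpoint, 3 members, was 0 with photoreceptor and muscle covariates and 1 with the adipocyte covariate, where the genes called among all tested went from 370 to 22 and 89. Leaving out single mice gave 2 to 3, Fads1 being lost without FUN025/+ replicate 2. The count of paralogue ratios that passed was 9 of 12, and single mice left out gave 9 to 10. The count was 0 with the replicate block, where 4 or 5 pairs cannot give an adjusted p under 0.05. That 0 says nothing about the ratios. The count was also 0 when medians were permuted in place of means (lowest adjusted p = 0.0623, exact permutation). Medians of so few mice tie in many arrangements, and ratios with fully separate ranges did not pass either. No conclusion about the ratios is drawn from the medians. Signs turned for members near 0 between FUN025/+ and WT. With the replicate block Fads3 was at -0.0232 and Scd3 at 0.048. Leaving out single mice, Fads3 ran from -0.0043 to 0.0805, Scd3 from -0.2186 to 0.0326 and Scd1 from -0.0368 to 0.1054. Same-numbered mice did not deviate together (mean r of -0.25, -0.07 and 0.05 for the 3 pairs of genotypes), and the replicate block changed no call other than that of Fads1 between FUN025/+ and WT and those of the ratios. Depth limits Scd3 and Scd4, which had 9 to 37 counts per library.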
